A study of Homo sapiens with 3 samples.

Results

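Immune checkpoint ligands are surface or secreted proteins by which one cell restrains or stimulates T cells, natural killer (NK) cells or macrophages. The 10 genes described here were chosen by symbol, with earlier results of these data known. They are 6 of the B7 family (CD274, PDCD1LG2, CD276, VTCN1, ICOSLG and CD80), the TNF receptor superfamily member TNFRSF14, the nectin-like gene PVR, CD47 and the galectin gene LGALS9. All 10 had a transcript cluster of their own on the array, among 14410 genes with a symbol of their own. Total RNA of 3 human cell lines was hybridised to exon arrays, 1 for each line. HT-29, derived from a colon adenocarcinoma, had received interferon gamma (IFN-γ) at 200 U/ml for 24 h. MDA-MB-436, a breast adenocarcinoma line, was kept in L-15 medium with serum and without added CO2. MCF10A, a non-tumorigenic mammary epithelial line and so not a tumor line, was kept with horse serum, EGF, hydrocortisone, cholera toxin and insulin. The labels name IFN-γ for neither mammary culture, and untreated HT-29 cells were not analysed here. Cell line, medium and cytokine therefore cannot be told apart where HT-29 is set against a mammary line. No line had a replicate array, so no test could be made and each value describes a single culture.

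The best known pair is PD-L1, the product of CD274, and PD-L2, the product of PDCD1LG2, which both bind the inhibitory receptor PD-1 on T cells. CD80 binds CD28 and CTLA-4, ICOSLG binds ICOS, and CD276 and VTCN1 encode the B7 family proteins B7-H3 and B7-H4. TNFRSF14, also called HVEM, engages BTLA and CD160. PVR, also called CD155, engages TIGIT, CD96 and the activating receptor CD226. CD47 binds SIRPA on macrophages and restrains phagocytosis, and LGALS9 encodes galectin-9, a ligand of TIM-3, the product of HAVCR2. In many cell types IFN-γ is known to induce CD274 through the kinases JAK1 and JAK2 and the transcription factor IRF1. The arrays measure transcript and not surface protein, and in such bulk RNA fewer cells with a transcript and less transcript per cell cannot be told apart.

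Values are linear intensities as deposited, and the intensity of one gene is not set against that of another, because probes differ. Background was 29.9, the 95th percentile of 228 olfactory receptor genes, whose highest intensity was 101. A gene was counted as different when the measured intensities were at least 4-fold apart, a log2 difference of 2, and the higher one lay above background. Where the dimmer value was at or under background, the background stood in for it and the fold is written as "at least". The array medians lay between 75.1 and 81.0, and the reference genes GAPDH and ACTB differed by at most 1.08-fold and 1.07-fold. Over all genes 66.6% were above background in HT-29, 68.8% in MDA-MB-436 and 65.0% in MCF10A. Of 8 measured colon markers, 7 were above background in HT-29, 3 in MDA-MB-436 and 2 in MCF10A. KRT20, an intestinal keratin gene, was at 1348 in HT-29, 12.4 in MDA-MB-436 and 10.5 in MCF10A, but CDH17, a cadherin of intestinal epithelium, was at 21.3 in HT-29. The basal keratin KRT14 was at 3732 in MCF10A and under background in the other lines. The epithelial surface marker EPCAM was at 2107 in HT-29, 34.9 in MDA-MB-436, near background, and 360 in MCF10A. The mesenchymal filament gene VIM was at 21.0 in HT-29, 2038 in MDA-MB-436 and 1933 in MCF10A, so it did not set the mammary lines apart. Of 4 measured basal mammary markers, 3 were above background in HT-29, 1 in MDA-MB-436 and 4 in MCF10A, and of 8 mesenchymal markers 1, 8 and 6. Unlike VIM, most of these 8 did differ between the mammary lines. MDA-MB-436 was past 4-fold on the higher side for 5 (CDH2, SPARC, BGN, MMP2 and ZEB1) and on the lower side for 1 (SNAI2). Over all genes, 3.65% were higher and 2.01% lower in MDA-MB-436 against MCF10A by the same rule. SPARC and MMP2 lay under background in MCF10A. The median log2 difference of the 8, MDA-MB-436 minus MCF10A, was 2.51, against 0.018 over all genes. Of 13 measured leukocyte markers, 2 lay above background in HT-29, 3 in MDA-MB-436 and 1 in MCF10A, and their summed intensity was 260.1, 276 and 308. The defining leukocyte gene PTPRC was at 3.72, 4.16 and 3.05, and CD3E at 8.10, 8.51 and 7.18. The monocyte gene CD14 was above background in every line, at 38.9 in HT-29, 86.5 in MDA-MB-436 and 156 in MCF10A. The B cell gene MS4A1 was above it in HT-29, at 68.0, and only just in MDA-MB-436, at 30.3. In MCF10A, MS4A1 lay under it, at 16.6. The myeloid integrin gene ITGAX was just above background in MDA-MB-436, at 31.5. The part of these genes in any result was not tested.

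Across the 10 genes, 7 were above background in HT-29 with IFN-γ, 7 in MDA-MB-436 and 6 in MCF10A, near the shares over all genes of 66.6%, 68.8% and 65.0%. CD276, ICOSLG, TNFRSF14, PVR and CD47 were above it in all 3 lines, and VTCN1 and CD80 in none. Of the 8 genes above background in any line, CD274, TNFRSF14, PVR, CD47 and LGALS9 were highest in HT-29 with IFN-γ (CD47 in MDA-MB-436 after quantile normalization), and PDCD1LG2, CD276 and ICOSLG in MDA-MB-436. None was highest in MCF10A. The plot of intensities by gene shows these orders. The share of all genes highest in each line was not computed, so these counts are not read as a trait of checkpoint ligand genes.

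**Figure D1:**
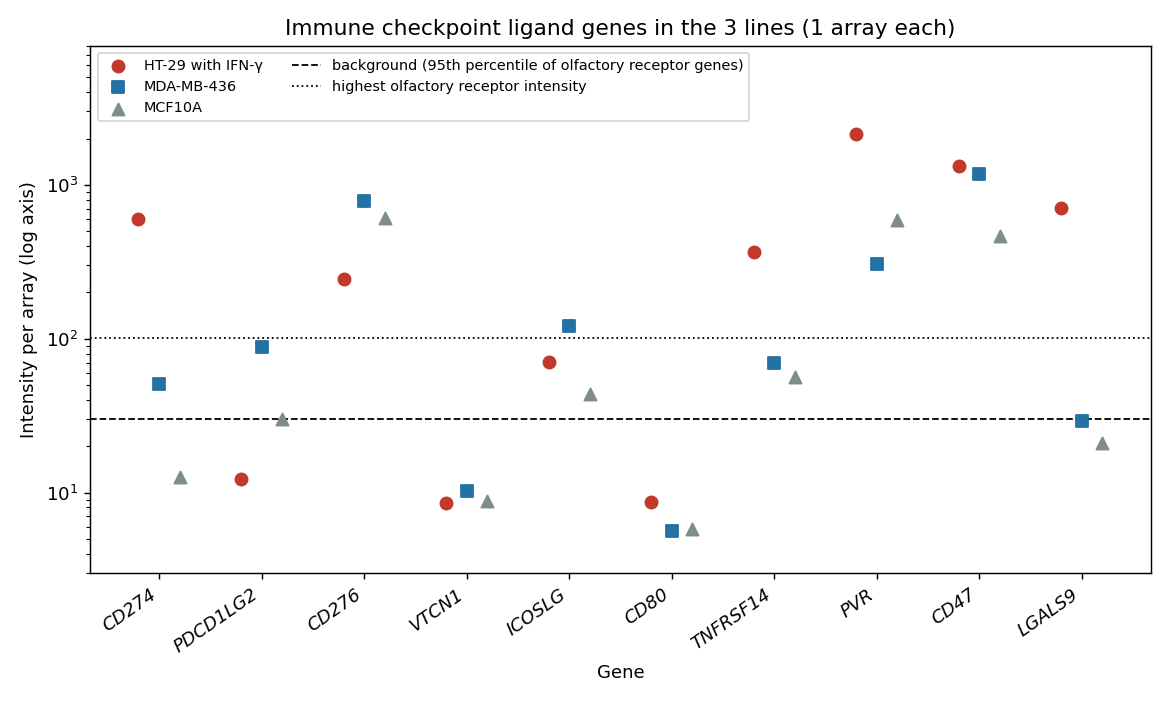
Intensity (log axis) of the 10 immune checkpoint ligand genes on the single array of HT-29 with IFN-γ (red circles), MDA-MB-436 (blue squares) and MCF10A (grey triangles). The dashed line is the background of 29.9 and the dotted line the highest olfactory receptor intensity of 101. CD274 and LGALS9 stand at 603 and 708 in HT-29 with IFN-γ and under 101 in both mammary lines, whereas VTCN1 and CD80 lie under the dashed line in every line.

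CD274, LGALS9 and TNFRSF14 exceeded both mammary lines by 4-fold or more in HT-29 with IFN-γ. CD274 had an intensity of 603 in HT-29 with IFN-γ, 50.5 in MDA-MB-436 and 12.7 in MCF10A. The HT-29 value was at least 20.2-fold that of MCF10A, which lay under background, and 12.0-fold that of MDA-MB-436, which lay above background but under the highest olfactory receptor value. LGALS9 had an intensity of 708 in HT-29 with IFN-γ, 29.3 in MDA-MB-436 and 20.8 in MCF10A. Both mammary values were under background, so galectin-9 transcript was at least 23.7-fold higher in HT-29 than in either. TNFRSF14 was at 366 in HT-29 with IFN-γ, 69.3 in MDA-MB-436 and 56.6 in MCF10A. It was above background in all lines, 5.28-fold higher in HT-29 than in MDA-MB-436 and 6.47-fold higher than in MCF10A. Both mammary values of TNFRSF14 lay under the highest olfactory receptor value. Against a stricter background of 60.6, the 99th percentile of the olfactory receptor genes, the CD274 value in HT-29 was at least 9.96-fold that of either mammary line, and the LGALS9 value at least 11.7-fold. The MCF10A value of TNFRSF14 lay under this stricter background, which gave at least 6.04-fold for HT-29 against MCF10A.

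LGALS9 has near-identical copies, LGALS9B and LGALS9C, and probes could read more than one of them. A further cluster, annotated to these 3 genes together and to no single one, had an intensity of 391 in HT-29 with IFN-γ, 26.7 in MDA-MB-436 and 24.1 in MCF10A. It was thus above background in the same line as the cluster of LGALS9 itself, and how much of either signal came from the copies was not tested.

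The promoters of these 3 genes are shown because genes induced by IFN-γ are known to carry gamma-activated sites of the form TTCNNNGAA and sites of interferon regulatory factors, which hold a pair of GAAA copies set 2 bases apart, here called the interferon response motif. The sequences are those of RefSeq on GRCh38.p14, from 250 bases before the transcript start to 50 after it, written 5′ to 3′ on the strand of the gene. Capitals mark matches to either motif, searched on both strands. TTCNNNGAA reads the same on both, and a match to the interferon response motif on the opposite strand appears as TTTC copies.
CD274 promoter, chr9:5450292-5450591, plus strand: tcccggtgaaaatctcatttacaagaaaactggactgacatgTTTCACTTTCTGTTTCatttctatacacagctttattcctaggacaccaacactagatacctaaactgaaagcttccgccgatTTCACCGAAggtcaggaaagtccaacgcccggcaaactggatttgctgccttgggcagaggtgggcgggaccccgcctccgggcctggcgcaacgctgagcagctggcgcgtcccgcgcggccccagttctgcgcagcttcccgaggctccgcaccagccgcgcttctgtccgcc
LGALS9 promoter, chr17:27630938-27631237, plus strand: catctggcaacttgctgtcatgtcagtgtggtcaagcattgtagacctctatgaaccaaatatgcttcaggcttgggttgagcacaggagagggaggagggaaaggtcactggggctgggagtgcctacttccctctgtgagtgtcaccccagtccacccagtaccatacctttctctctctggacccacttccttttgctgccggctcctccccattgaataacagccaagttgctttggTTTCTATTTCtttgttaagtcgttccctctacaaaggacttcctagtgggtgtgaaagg
TNFRSF14 promoter, chr1:2556121-2556420, plus strand: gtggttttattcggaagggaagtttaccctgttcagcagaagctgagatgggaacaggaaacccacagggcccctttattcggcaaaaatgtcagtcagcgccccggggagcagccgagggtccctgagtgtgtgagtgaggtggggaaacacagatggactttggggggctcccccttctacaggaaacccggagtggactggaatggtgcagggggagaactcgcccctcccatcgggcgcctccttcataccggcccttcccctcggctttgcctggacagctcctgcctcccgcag
In CD274 one match to TTCNNNGAA lay at bases -125 to -117 from the start, counted without a base 0. A pair of overlapping matches to the interferon response motif on the opposite strand, at -208 to -199 and -202 to -193, form the longer run of capitals. In LGALS9 a single match to the interferon response motif on the opposite strand lay at -9 to 1, across the transcript start. TNFRSF14 had no match in this window. Of 35116 promoters of the same length, 7.66% held TTCNNNGAA, 3.57% held the interferon response motif and 0.439% held both, as CD274 did. Promoters were listed for 9 of the 10 genes, all but PDCD1LG2, and the 7 other than CD274 and LGALS9 held neither motif. A match is a description of letters, and binding was not measured.

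PDCD1LG2 had another order than CD274, although both encode ligands of PD-1. PDCD1LG2 was at 12.3 in HT-29 with IFN-γ, 88.4 in MDA-MB-436 and 30.3 in MCF10A. The HT-29 value was under background, the MCF10A value only just above it, and the MDA-MB-436 value below the highest olfactory receptor intensity of 101. The measured intensities were 7.17-fold lower in HT-29 than in MDA-MB-436 and so counted as different. Against the background the difference was at least 2.96-fold, which falls short of 4-fold. MDA-MB-436 was 2.92-fold higher than MCF10A, or at least 1.46-fold against the stricter background.

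CD274 and PDCD1LG2 are adjacent on chromosome 9 in the RefSeq gene order of GRCh38.p14. Of the 3 protein-coding genes on each side of the pair, PLGRKT and RIC1, which flank it directly, had a cluster of their own. PLGRKT, a plasminogen receptor gene, was at 42.2 in HT-29 with IFN-γ, 99.6 in MDA-MB-436 and 36.3 in MCF10A. RIC1, which encodes part of a Golgi trafficking complex, was at 127 in HT-29 with IFN-γ, 267 in MDA-MB-436 and 202 in MCF10A. Like PDCD1LG2, both flanking genes were highest in MDA-MB-436, and of these 4 adjacent genes CD274 alone was highest in HT-29 with IFN-γ. RLN1, RLN2, ERMP1 and BRD10, the outer genes, were not analysed here.

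**Figure D2:**
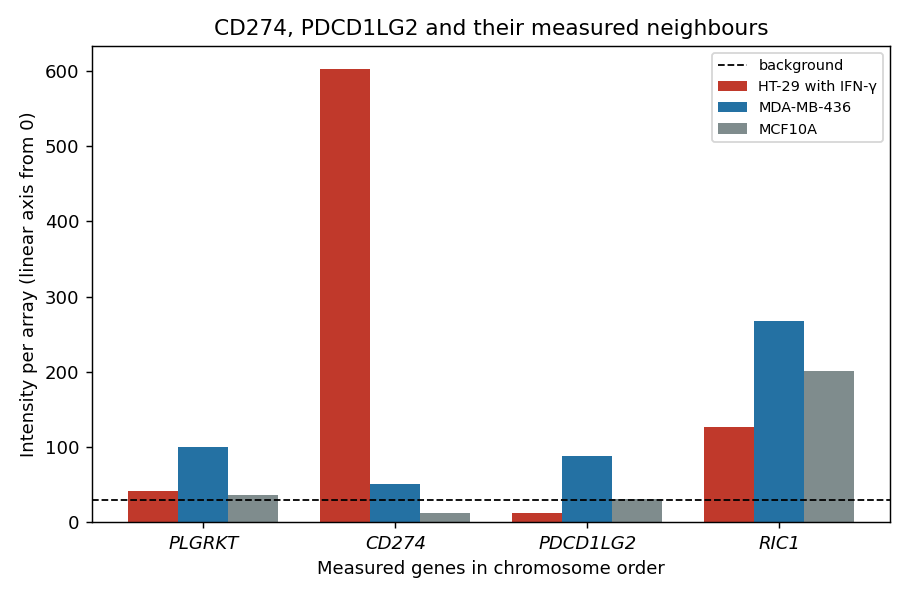
Intensity (linear axis from 0) of the 4 measured genes in chromosome order around CD274 and PDCD1LG2, with 1 bar per array for HT-29 with IFN-γ (red), MDA-MB-436 (blue) and MCF10A (grey) and the background of 29.9 as a dashed line. Within each gene, CD274 has its highest bar in HT-29, at 603, and PLGRKT, PDCD1LG2 and RIC1 have theirs in MDA-MB-436.

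CD276 and ICOSLG were above background in all 3 lines and highest in MDA-MB-436. CD276, which encodes B7-H3, was at 244 in HT-29 with IFN-γ, 786 in MDA-MB-436 and 610 in MCF10A. All 3 values lay well above background. HT-29 was 3.22-fold lower than MDA-MB-436 and 2.50-fold lower than MCF10A, so no pair reached 4-fold. ICOSLG was at 71.0 in HT-29 with IFN-γ, 122 in MDA-MB-436 and 44.0 in MCF10A. MDA-MB-436 was the only line in which this ICOS ligand gene exceeded the highest olfactory receptor value, and it was 2.77-fold higher there than in MCF10A.

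VTCN1 and CD80 gave no signal above background. VTCN1, the B7-H4 gene, was at 8.56 in HT-29 with IFN-γ, 10.2 in MDA-MB-436 and 8.77 in MCF10A. CD80 was at 8.67 in HT-29 with IFN-γ, 5.58 in MDA-MB-436 and 5.77 in MCF10A. These intensities are near the olfactory receptor median of 5.92, and no fold is given for either gene. CD86, the other ligand of CD28 and CTLA-4, was likewise under background, at 9.85, 8.82 and 9.05 in the same order of lines.

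PVR and CD47 were well above background in every line. PVR was at 2153 in HT-29 with IFN-γ, 308 in MDA-MB-436 and 589 in MCF10A. The HT-29 value was 6.99-fold that of MDA-MB-436 and 3.65-fold that of MCF10A, the second just short of 4-fold. It was the only one of the 10 genes above background in any line whose intensity was lower in MDA-MB-436 than in MCF10A, by 1.91-fold. A second cluster, annotated to PVR and its neighbour CEACAM19 together, was at 48.3 in HT-29 with IFN-γ, 43.6 in MDA-MB-436 and 32.2 in MCF10A, close to background. CD47 was at 1324 in HT-29 with IFN-γ, 1179 in MDA-MB-436 and 467 in MCF10A. Both tumor lines were thus higher than MCF10A, HT-29 by 2.83-fold and MDA-MB-436 by 2.52-fold, and the order of the tumor lines turned under quantile normalization (log2 difference 0.17 as deposited and -0.17 normalized).

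In HT-29 with IFN-γ against MCF10A, 3 of the 10 genes were higher past 4-fold (CD274, LGALS9 and TNFRSF14) and 0 lower. Over all 14410 genes 4.34% were higher and 3.5% lower by the same rule. The median log2 difference was 1.10 over the 10 genes and 0.11 over all genes, and 1.10 and 0 with values under background set to it. CD274 and LGALS9 were under background in MCF10A, so their log2 differences are bounds, of at least 4.33 and at least 4.56, and their order cannot be told. With values under background set to the background for every gene, 97.5% of the 10174 genes above background in either line lay under 2.82. Measured on both sides were TNFRSF14 at 2.69, PVR at 1.87 and CD47 at 1.50, and on the lower side CD276 at -1.32. PDCD1LG2 was under background in HT-29 and just above it in MCF10A, a difference of at least 1.01-fold.

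In MDA-MB-436 against MCF10A, 0 of the 10 genes were higher past 4-fold and 0 lower, against 3.65% higher and 2.01% lower over all genes. CD274 came nearest, with measured intensities 3.98-fold apart, but its MCF10A value lay under background and the bound was at least 1.69-fold. PDCD1LG2, ICOSLG and CD47 were above background in both lines, at log2 differences of 1.55, 1.47 and 1.34. The median log2 difference was 0.43 over the 10 genes and 0.018 over all genes, and 0.33 and 0 with values under background set to it.

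In HT-29 with IFN-γ against MDA-MB-436, 4 of the 10 genes were higher past 4-fold (CD274, LGALS9, TNFRSF14 and PVR) and 1 lower (PDCD1LG2). Over all genes 4.21% were higher and 4.68% lower. The median log2 difference was 0.40 over the 10 genes and 0.076 over all genes, and 0.084 and 0 with values under background set to it. CD274, above background in both lines, had a log2 difference of 3.58. LGALS9, under background in MDA-MB-436, had one of at least 4.56. With values under background set to the background, the 97.5th percentile over the 10531 genes above background in either line was 2.74. The comparisons share arrays, so they are not separate evidence on a gene.

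**Figure D3:**
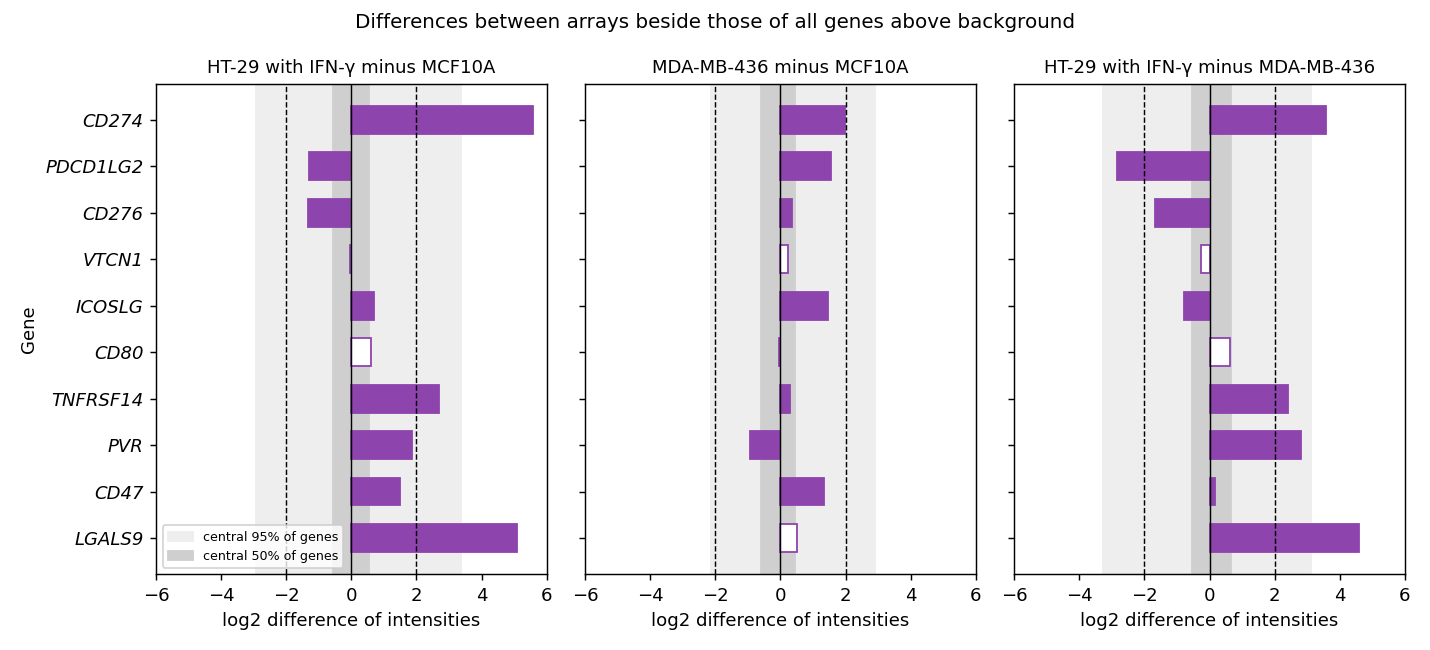
log2 difference of intensities for the 10 genes in HT-29 with IFN-γ minus MCF10A, MDA-MB-436 minus MCF10A, and HT-29 with IFN-γ minus MDA-MB-436, with measured intensities throughout and open bars where both values were at or under background. Dashed lines mark 4-fold, and the grey bands hold the central 50% and 95% of all genes above background in either line. CD274 and LGALS9 lie outside the wide band in both comparisons with HT-29, and no gene lies outside it in MDA-MB-436 minus MCF10A.

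Receptors of the ligands were nearly all dim in these epithelial and tumor lines. Of 14 measured receptor genes, 1 was above background in each line, SIRPA, the receptor of CD47. Over all genes the shares were 66.6% in HT-29, 68.8% in MDA-MB-436 and 65.0% in MCF10A. SIRPA was at 50.7 in HT-29 with IFN-γ, 188 in MDA-MB-436 and 305 in MCF10A. The HT-29 value was 6.01-fold lower than that of MCF10A, so SIRPA was highest in the line where its ligand gene CD47 was lowest. BTLA, the receptor of TNFRSF14, was at 5.48, 4.44 and 5.20, and PDCD1, the PD-1 gene, was not analysed here. Of the 7 measured genes around CD47 and phagocytosis, SIRPA was the only one past 4-fold in any comparison. It was so in HT-29 with IFN-γ against MCF10A, where 3.5% of all genes were lower past 4-fold. QPCTL, the enzyme gene whose product modifies the SIRPA binding site of CD47, was at 194 in HT-29 with IFN-γ, 173 in MDA-MB-436 and 409 in MCF10A.

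Known regulators of CD274 were all above background in HT-29 with IFN-γ and in MDA-MB-436. Of the 21 measured, JAK2, IRF1, IRF9 and SOCS1 passed 4-fold on the higher side against MCF10A and 0 on the lower side in HT-29 with IFN-γ. The median log2 difference of the 21 was 0.70, against 0.11 over all genes, of which 4.34% were higher and 3.5% lower past 4-fold. IRF1, a transcription factor of the IFN-γ response, was at 3961 in HT-29 with IFN-γ, 326 in MDA-MB-436 and 94.9 in MCF10A, the same order of lines as CD274. JAK2, a kinase of the IFN-γ receptor, was at 405 in HT-29 with IFN-γ, 163 in MDA-MB-436 and 56.5 in MCF10A. SOCS1, which encodes a feedback inhibitor of JAK kinases, was at 211 in HT-29 with IFN-γ, 40.7 in MDA-MB-436 and 8.29 in MCF10A. In MDA-MB-436 against MCF10A, 2 of the 21 passed 4-fold on the higher side, IRF9 and SOCS1, against 3.65% over all genes. SOCS1 had a bound of at least 1.36-fold because of its MCF10A value. IRF9, part of the type I interferon transcription complex, was at 1345 in HT-29 with IFN-γ, 916 in MDA-MB-436 and 80.5 in MCF10A.

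The receptor and membrane partners given next did not pass 4-fold in any comparison. JAK2, IRF1, IRF9 and SOCS1 were the list genes that did, so this contrast was fixed by how they were picked. IFNGR1, IFNGR2, CMTM6 and CMTM4 had other orders of lines than CD274, and JAK1 had the same order. The receptor chain gene IFNGR1 was at 942 in HT-29 with IFN-γ, 316 in MDA-MB-436 and 491 in MCF10A, and IFNGR2 at 380, 692 and 581. JAK1, the other kinase of the receptor, was at 887, 788 and 475. CMTM6, whose product keeps PD-L1 at the cell surface, was at 264, 298 and 343, at most 1.30-fold apart. Its effect on PD-L1 protein in these lines was not tested. CMTM4, a related gene with a similar role, was at 294, 98.8 and 203.

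Related families showed members high in different lines. Of 7 measured galectins other than LGALS9, LGALS4 and LGALS1 were past 4-fold, in opposite directions. Among all genes, 4.34% were higher and 3.5% lower in HT-29 with IFN-γ against MCF10A, and 4.21% and 4.68% against MDA-MB-436. LGALS4, an intestinal galectin, was at 2372 in HT-29 with IFN-γ and under background in MDA-MB-436 and MCF10A, at 19.9 and 14.0. LGALS1 was at 98.6 in HT-29 with IFN-γ, 2518 in MDA-MB-436 and 3040 in MCF10A, so HT-29 was 25.5-fold lower than MDA-MB-436 and 30.8-fold lower than MCF10A. Of 7 measured nectin and nectin-like genes, NECTIN2 alone passed 4-fold in HT-29 with IFN-γ against MCF10A, on the higher side. NECTIN2, which like PVR encodes a ligand of CD226 and TIGIT, was at 1642 in HT-29 with IFN-γ, 452 in MDA-MB-436 and 405 in MCF10A, and its 4.06-fold difference from MCF10A was only just past 4-fold. NECTIN1 was at 120 in HT-29 with IFN-γ, 52.2 in MDA-MB-436 and 326 in MCF10A, and CADM1, an adhesion gene, was at 231 in MDA-MB-436 and under background in the other lines.

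Of 12 other B7 and butyrophilin genes, 6 were above background in each line, against 66.6%, 68.8% and 65.0% over all genes. BTN3A3 was higher past 4-fold in HT-29 with IFN-γ against MCF10A, BTN3A2 against MDA-MB-436, and 0 genes were lower. Among all genes, 4.34% and 4.21% were higher in these comparisons, and 3.5% and 4.68% lower. BTN3A3, a butyrophilin whose relatives present phosphoantigen signals to gamma delta T cells, was at 355 in HT-29 with IFN-γ, 131 in MDA-MB-436 and 53.5 in MCF10A. BTN3A2 was at 351 in HT-29 with IFN-γ, 53.2 in MDA-MB-436 and 130 in MCF10A. The BTN3A genes are close paralogs whose probes can share signal. HHLA2, another B7 family gene, was under background in all lines, at 13.8, 3.74 and 2.97.

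Of 9 measured co-signalling genes of the TNF superfamily, 1 was higher and 2 were lower past 4-fold in HT-29 with IFN-γ against MCF10A. The shares over all genes were 4.34% and 3.5%. TNFSF15 was at 901 in HT-29 with IFN-γ, 16.7 in MDA-MB-436 and 57.7 in MCF10A. CD70, the ligand of CD27, was at 22.9 in HT-29 with IFN-γ, 121 in MDA-MB-436 and 263 in MCF10A, and TNFSF9, the ligand of 4-1BB, at 66.0, 150 and 266. HT-29 was therefore high for TNFSF15 and low for CD70 and TNFSF9. LTBR, which with TNFRSF14 is a receptor of the ligand LIGHT, was at 965 in HT-29 with IFN-γ, 1023 in MDA-MB-436 and 854 in MCF10A.

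Among 15 measured genes of other inhibitory factors, 5 passed 4-fold on the higher side and 1 on the lower side in HT-29 with IFN-γ against MCF10A. Their median log2 difference was 0.71, against 0.11 over all genes, of which 4.34% were higher and 3.5% lower past 4-fold. IDO1, a tryptophan-degrading enzyme gene, was at 481 in HT-29 with IFN-γ and under background in MDA-MB-436 and MCF10A, at 9.69 and 5.06. CEACAM1, an inhibitory adhesion molecule gene, was at 1994 in HT-29 with IFN-γ, 51.5 in MDA-MB-436 and 68.7 in MCF10A. HLA-F, a nonclassical class I gene, was at 1406, 454 and 135 in the same order of lines, and its probes can share signal with other class I genes. The lower gene was PTGES, which encodes a prostaglandin E synthase, at 78.0 in HT-29 with IFN-γ, 537 in MDA-MB-436 and 1912 in MCF10A.

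Of 8 measured NK and adhesion ligand genes, 2 passed 4-fold on the higher side and 2 on the lower side in HT-29 with IFN-γ against MCF10A. The shares over all genes were 4.34% and 3.5%. ULBP1, a ligand of the activating receptor NKG2D, was at 899 in HT-29 with IFN-γ, 222 in MDA-MB-436 and 34.4 in MCF10A. The adhesion ligand gene ICAM1 was at 2569 in HT-29 with IFN-γ, 1050 in MDA-MB-436 and 74.9 in MCF10A. MICB, also an NKG2D ligand gene, ran otherwise, at 42.7 in HT-29 with IFN-γ, 899 in MDA-MB-436 and 462 in MCF10A. RAET1E, a further NKG2D ligand gene, was at 306 in MCF10A and under background in the other lines. NKG2D ligand genes were thus high in different lines, and those with close paralogs can share probe signal.

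**Figure D4:**
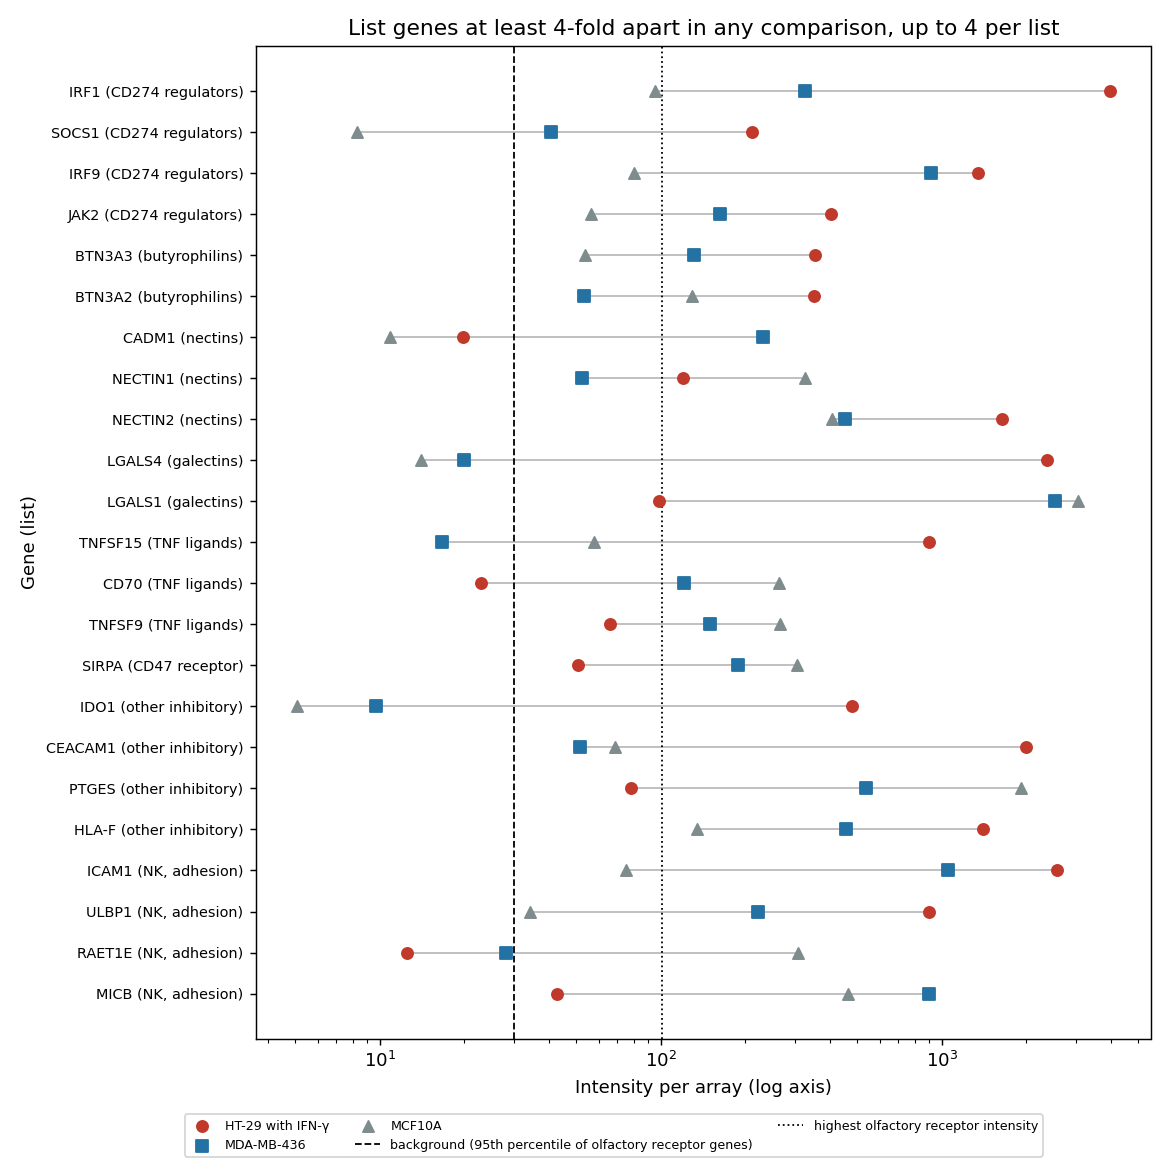
Intensity (log axis) of up to 4 genes per list that were at least 4-fold apart in any comparison, with 1 point per array for HT-29 with IFN-γ (red circles), MDA-MB-436 (blue squares) and MCF10A (grey triangles). The dashed line is the background of 29.9 and the dotted line the highest olfactory receptor value of 101. IRF1, SOCS1, IRF9 and JAK2, plotted for their large differences, run from MCF10A to MDA-MB-436 to HT-29, as CD274 does. Other regulators of CD274 that are not plotted, such as CMTM6 and IFNGR2, have other orders. LGALS1, CD70, TNFSF9, SIRPA and PTGES run the opposite way to CD274.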

How the data were processed

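Biotin-labelled material from total RNA of 3 lines went onto exon arrays (per the labels). What the authors deposited is a linear intensity, 1 per transcript cluster and array (18708 clusters). Background correction, summary and normalization are not given in the sources used here, and the build hg19 is listed, per the submitters' processing notes. Unknown scaling between arrays can shift small differences.

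Of the clusters, 14733 had a single symbol in the platform annotation, 2875 had several and were not used to name a gene, and 1100 were unnamed here. Symbols were updated through gene identifiers against RefSeq (GRCh38.p14). The cluster with the highest mean stood for a gene, which left 14410 genes. Intensities were log2 transformed and subtracted between arrays. No test was made with 1 array per group, whose number limits the precision.

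The genes and the 13 lists were chosen with earlier results of these data known. Named were all 10 genes, up to 4 genes per list with the largest differences past 4-fold, 17 single genes, and 3 neighbours on each side of CD274 and PDCD1LG2. LTBR, CD3E, PTPRC, ITGAX and CDH17, listed markers or partners, were added after their values were seen, as were the percentiles and medians with values under background set to the background. The counting step was tested on simulated data, with planted changes beyond the threshold in genes well above background. That checks the counting only and not the calls of dim genes. The tools were numpy 2.4.6 and pandas 2.3.3 in Python 3.11.15, with plots by matplotlib 3.10.9.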

Additional observations from a re-analysis of the deposited data

How the results depend on the processing

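The alternatives were a background at the olfactory receptor genes' 99th percentile (60.6), no filter, values under background set to the background, quantile normalization, median centring, folds of 2 and 8, and the median over the clusters of a gene. No paired analysis was possible because each group had 1 array and no test was made. Of 240 recomputed differences of the 10 genes, 226 stayed on their side of the fold threshold, 5 fell under it, 9 went past it, and 0 of those past 4-fold turned sign. The 9 all arose at 2-fold. The 5 arose at 8-fold, apart from PDCD1LG2 in HT-29 minus MDA-MB-436 with values set to the background. The stricter background, the lack of a filter and the folds of 2 and 8 change no log2 difference, so no sign could turn under them. Part of this stability was therefore fixed beforehand. The calls of CD274 and LGALS9 in HT-29 with IFN-γ against either mammary line held under all 8 alternatives. At the 99th percentile, 3 genes in place of 6 were above background in MCF10A. With values set to the background, PDCD1LG2 had a log2 difference of -1.56 for HT-29 minus MDA-MB-436 and 0 genes were lower there. At 2-fold, 5 of the 10 genes were higher and 2 lower in HT-29 against MCF10A, 4 were higher in MDA-MB-436 against MCF10A, and 2 were lower in HT-29 against MDA-MB-436. At 8-fold, 2 were higher and 0 lower in HT-29 against MDA-MB-436.

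Over all 14410 genes, HT-29 minus MCF10A gave 625 higher and 505 lower at 4-fold, 1467 and 1454 at 2-fold, and 332 and 237 at 8-fold. MDA-MB-436 minus MCF10A gave 526 and 290 at 4-fold, 1262 and 1259 at 2-fold, and 241 and 132 at 8-fold, and 307 higher with values set to the background. HT-29 minus MDA-MB-436 gave 607 and 675 at 4-fold, 1659 and 1581 at 2-fold, and 292 and 331 at 8-fold. Quantile normalization moved the median of all genes by -0.12 on the log2 scale for HT-29 minus MCF10A, and median centring moved it by -0.11 for MDA-MB-436 minus MCF10A. Differences of dim genes are the least certain: between arrays, the SD of the olfactory receptor genes' log2 differences was 0.76 to 0.80.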
